A study of Mus musculus with 36 samples.

Results

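Livers of young mice taken at the time point labelled 120 of a regeneration series were compared with livers of young mice taken before it. The comparison holds 6 of the 36 samples of the series, 3 per group, chosen by their titles as the young samples of these 2 time points. The series covers young (4 months) and old (18 months) mice of the strain C57BL/6JN at 6 time points (before, 48, 72, 96, 120 and 240), with 3 samples of total RNA from frozen liver in each group. The labels give no unit for the time points, and how regeneration was started is not given in the sources used here. All 6 livers came from 4-month-old mice of the same strain, carried no other label of genotype or treatment, and received the same spike-in mix. The 3 samples of a group are described as biological replicates. Unless another fit is named, the p-values rest on the spread between replicates within groups, estimated over all 36 samples of both ages and all time points. They do not rest on the spread within the 6 samples compared alone.

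Regenerating liver is known for the re-entry of quiescent hepatocytes into the cell cycle, which passes through DNA synthesis and mitosis before the organ returns to rest. Hepatocytes keep up glucose output, lipid synthesis and secretion of plasma proteins during this time, and they answer inflammatory cytokines with acute phase proteins. Immediate early genes, which encode transcription factors such as Fos and Jun and short-lived feedback regulators such as Dusp1 and Zfp36, respond to stimuli within minutes and without new protein synthesis.

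The 6 libraries held 3629315 to 5394203 counts and 15618 to 18309 detected genes. The hepatocyte marker list summed to between 73700 and 84900 CPM (counts scaled to the library total) in each of them, so the liver label was borne out by its defining genes. Y-linked transcripts were present in 12 of the 36 libraries, 1 per group, and here in replicate 1 before (277.2 CPM) and in replicate 1 at 120 (249.6 CPM). Xist was at 2.916 CPM in replicate 1 before and 2.146 CPM in replicate 1 at 120, and at 3461 to 3767 CPM in the others compared. Each group thus mixed libraries of male and of female pattern. Replicate 1 at 120 stood apart for skeletal muscle transcripts. A list of 19 muscle genes, chosen after the values were seen and therefore not tested, summed to 3860 CPM or 0.386% of its counts, against 15.27 to 52.13 CPM in the other 35 libraries, and 17 of the 19 genes had their highest level there. The sarcomere genes Acta1 (565 CPM), Myh2 (271 CPM), Myh1 (249 CPM) and Myh4 (215 CPM) were all under 1 CPM in the other 5 libraries compared, while the cardiac genes Myh6 and Tnnt2 were at 0 and 0.39 CPM in it. Results that rest on this library are given with and without it.

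**Figure D1:**
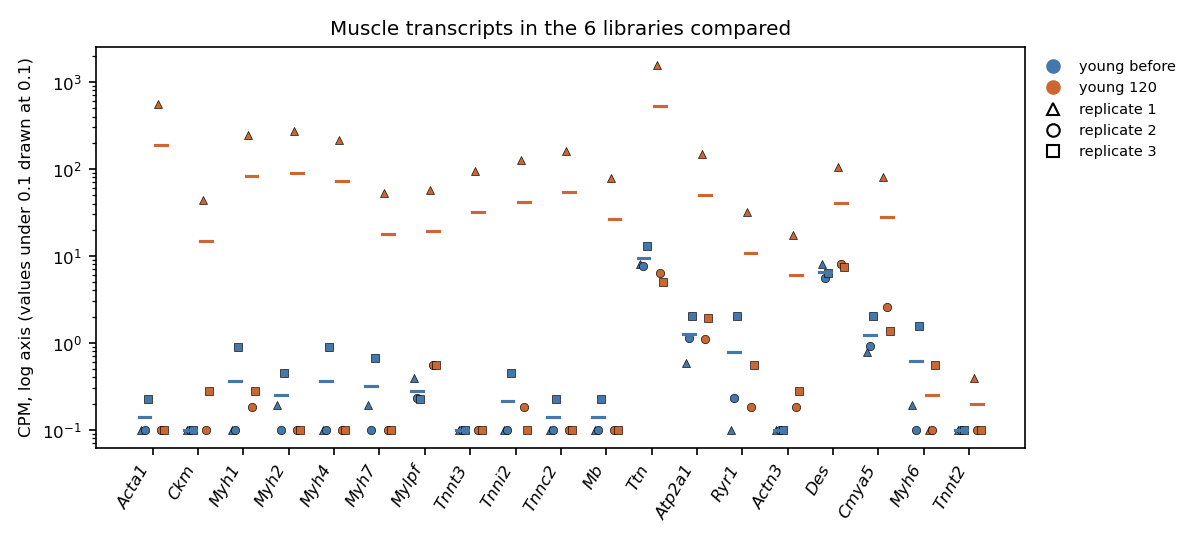
Levels of 19 muscle genes (CPM, log axis) in the 3 young libraries before and the 3 at 120, 1 point per library with bars for the group means. The triangles of replicate 1 at 120 lie far above all other points for the skeletal muscle genes, as for Acta1 at 565 CPM, and near or at the floor for the cardiac genes Myh6 and Tnnt2.

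At 120, young liver differed from liver before in a small set of genes. Of 13436 genes tested, 80 (0.595%) passed an adjusted p of 0.05, 30 higher (0.223%) and 50 lower (0.372%), by edgeR's quasi-likelihood test with Benjamini-Hochberg adjustment. Ppp1r3g, Fos and Jun were among the falls, and Lcn2, Orm2, Armcx4 and Fgr had the 4 smallest p among the rises. At an unadjusted p of 0.05, 1631 genes differed. The 3 libraries of each group did not overlap for 3047 genes, which is 22.7% of those tested and nearly even in direction (1576 higher, 1471 lower). Over all genes the median log2 fold change was 0.01, and scaling by total counts moved it to 0.10 and the split of calls to 53 higher and 43 lower. Which direction held more calls also turned in a fit of the 6 libraries alone (121 higher, 98 lower), without replicate 2 at 120 (28 and 22) and without replicate 3 at 120 (28 and 26).

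The number of calls was lower whichever of the 6 libraries was left out. Each of these fits also has 1 library fewer in a group, and what this alone does to the count was not tested. Without replicate 1 at 120, 31 genes passed (0.226% of 13694 tested; 11 higher, 20 lower), and 28 of them were among the 80. The count was 47 without replicate 1 before, 34 without replicate 2 before, 39 without replicate 3 before, 50 without replicate 2 at 120 and 54 without replicate 3 at 120. Within the 24 libraries of the series that lack Y-linked transcripts, 60 genes passed (25 higher, 35 lower), and 31 of them were among the 80. The libraries with these transcripts, 1 in each group, allow no test. Of the 41 called genes named by rule, 12 kept their call whichever of the 6 libraries was left out: Ppp1r3g, Fos, Fosb, Nr4a1, Jun, Zfp36, Gdf15 and Btbd19 among the falls, and Lcn2, Orm2, Armcx4 and Fgr among the rises.

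**Figure D2:**
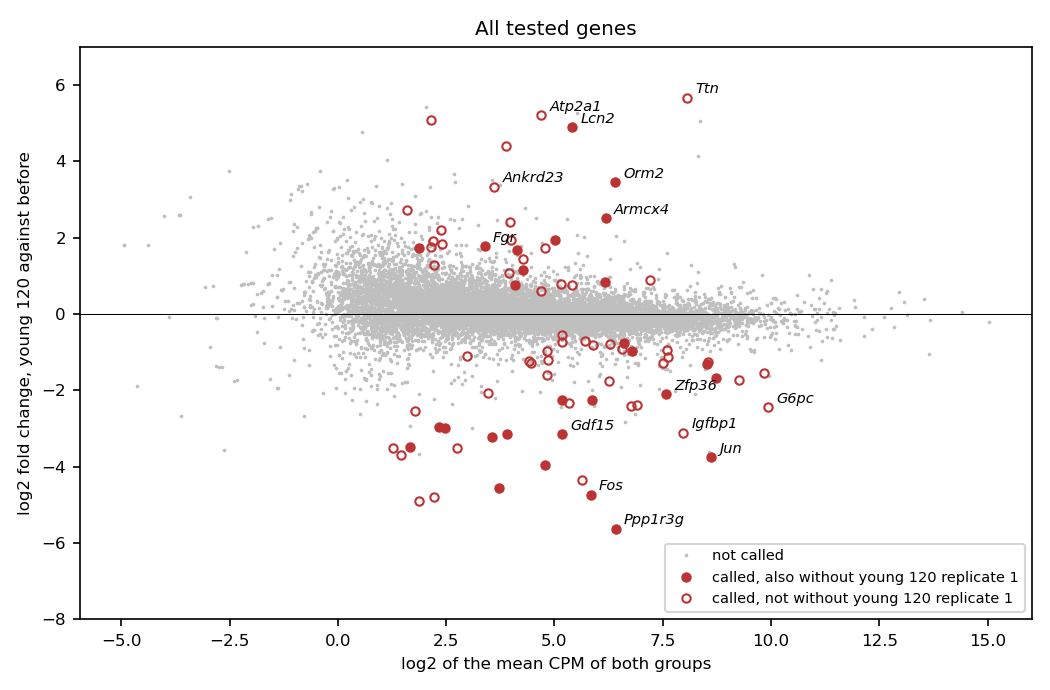
Log2 fold change of each tested gene, young 120 against before, over the log2 of its mean CPM in both groups. Red points are the 80 called genes, filled where the call held without replicate 1 at 120 (28 genes) and open where it did not; Ttn and Atp2a1 are open, and Ppp1r3g, Fos, Jun, Lcn2 and Armcx4 are filled.

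Immediate early genes held more of the falls than any other list. Of 28 members tested, 9 were called lower (Fos, Fosb, Atf3, Nr4a1, Jun, Dusp1, Btg2, Zfp36 and Maff) and 1 higher (Ier5), against 0.372% of all genes lower and 0.223% higher. The list's median log2 fold change was -1.74, against 0.01 over all genes, and -1.79 without replicate 1 at 120. Their summed level was 2050, 3640 and 3540 CPM in replicates 1, 2 and 3 before and 882, 865 and 1090 CPM at 120. The library before with Y-linked transcripts was thus the lowest of its group, and still above every library at 120. Within the 24 libraries without these transcripts, 10 members were called lower, of 35 genes called lower there, and the median was -1.76. The other 3 members (Fosl1, Egr3 and Nr4a3) were too low to be tested. Against before, the list's median was also -1.54 at 48, -1.66 at 72, -1.9 at 96 and -1.93 at 240, so the fall was not particular to 120. All of these comparisons share the 3 libraries before.

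Jun, a subunit of the AP-1 transcription factor, stood at 434, 823 and 934 CPM before and at 56.7, 35.2 and 71.7 CPM at 120 (levels here and below are CPM scaled by TMM, the trimmed mean of M-values). The groups lay far apart (log2 fold change -3.75, SE 0.50, adjusted p 9.01e-05, edgeR). Fos, its AP-1 partner, was at 16.4, 180 and 134 CPM before and at 5.07, 2.78 and 4.57 CPM at 120, with no overlap (log2 fold change -4.74, SE 0.76, adjusted p 0.00131, edgeR). Replicate 1 before was far below its group mates for Fos, and it was also the lowest of the 3 for Fosb (2.71, 42.5 and 31.0 CPM) and Atf3 (16.9, 101 and 167 CPM).

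Fosb, another AP-1 subunit, was at 1.36, 1.11 and 0.571 CPM at 120 (log2 fold change -4.55, SE 0.79, adjusted p 0.00443, edgeR). Atf3, a stress-induced bZIP factor, was at 1.95, 5.0 and 7.42 CPM at 120 and fell by 4.35 (SE 0.90, adjusted p 0.0144, edgeR). The nuclear receptor Nr4a1 went from 31.4, 59.4 and 63.2 CPM to 3.90, 2.96 and 2.85 CPM, a log2 fold change of -3.96 (adjusted p 0.000761, edgeR). None of these genes overlapped between the groups, although for Fosb the lowest library before (2.71 CPM) was close to the highest at 120 (1.36 CPM).

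The feedback regulators of the list fell as well. Zfp36, an RNA-binding protein that destabilises AU-rich messages, went from 223, 393 and 309 CPM to 82.6, 58.2 and 75.4 CPM (log2 fold change -2.10, SE 0.28, adjusted p 9.01e-05, edgeR). Dusp1, a phosphatase of MAP kinases, went from 220, 190 and 139 CPM to 41.9, 20.4 and 41.4 CPM (log2 fold change -2.41, SE 0.50, adjusted p 0.0144, edgeR). Btg2, an anti-proliferative p53 target, was at 62.0, 283 and 258 CPM before and 31.9, 35.9 and 48.2 CPM at 120 (log2 fold change -2.38, adjusted p 0.0164, edgeR). The small Maf protein gene Maff fell by 1.61 (adjusted p 0.0486, edgeR). Ier5 was the only member called higher and went from 6.66, 9.45 and 8.96 CPM to 19.1, 27.8 and 33.7 CPM (log2 fold change 1.68, SE 0.32, adjusted p 0.00811, edgeR).

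Several members that did not pass the test lay on the same side: Ier2 had a log2 fold change of -1.97 (adjusted p 0.052), Cyr61 of -2.00 (adjusted p 0.0666) and Egr1 of -2.03 (adjusted p 0.267). Egr1, a zinc finger factor, was at 101, 481 and 472 CPM before and at 51.8, 153 and 52.8 CPM at 120, so the groups overlapped. Myc (-0.50), Klf6 (0.46) and Socs3 (0.65) showed no call in either direction. Leaving out 1 library ended the call of Atf3 (without replicate 3 before or replicates 1 or 2 at 120, adjusted p up to 0.113), Btg2 (without replicates 2 or 3 before or 1 or 2 at 120, up to 0.113), Dusp1 (without replicates 1 or 2 before or 1 or 2 at 120, up to 0.105), Maff (without any, up to 0.212) and Ier5 (without replicate 1 before, 0.0655), and the number of members called lower ranged from 5 to 9 over these fits. With the replicate number as a block, Maff did not pass either (-1.63, adjusted p 0.0673).

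The promoters of 3 of these genes are shown because they hold motifs known from immediate early regulation: the cAMP response element TGACGTCA in Dusp1 and Btg2, and a CArG box, the site of serum response factor, in Zfp36 (capitals). Each run is the 250 bases before the gene's RefSeq start in GRCm38.p6, written 5′ to 3′ on the gene's strand.
Dusp1, chr17:26508473-26508722, minus strand: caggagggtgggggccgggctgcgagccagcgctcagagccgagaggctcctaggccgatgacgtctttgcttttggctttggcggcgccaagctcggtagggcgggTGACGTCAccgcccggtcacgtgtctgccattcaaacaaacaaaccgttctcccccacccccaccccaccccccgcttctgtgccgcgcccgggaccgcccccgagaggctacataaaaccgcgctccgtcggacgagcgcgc
Btg2, chr1:134079156-134079405, minus strand: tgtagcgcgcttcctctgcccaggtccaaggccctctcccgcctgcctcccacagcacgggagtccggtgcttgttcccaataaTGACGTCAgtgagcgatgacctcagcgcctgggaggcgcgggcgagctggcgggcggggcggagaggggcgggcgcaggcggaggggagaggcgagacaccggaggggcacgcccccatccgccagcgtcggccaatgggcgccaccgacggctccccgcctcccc
Zfp36, chr7:28379229-28379478, minus strand: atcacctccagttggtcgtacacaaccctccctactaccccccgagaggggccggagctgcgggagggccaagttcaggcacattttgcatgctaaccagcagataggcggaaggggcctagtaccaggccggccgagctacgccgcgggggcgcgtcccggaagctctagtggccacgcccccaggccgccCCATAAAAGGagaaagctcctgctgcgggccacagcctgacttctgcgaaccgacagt

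The motif starts lie 143 bases before the start of Dusp1, 166 before that of Btg2 and 58 before that of Zfp36. Motifs were chosen with the genes known and sought on both strands in windows of 300 bases (250 before to 50 after the start). The cAMP response element was in 3 of 9 fallen immediate early genes (Btg2, Dusp1 and Maff), against 3.42% of 10169 tested genes with a promoter. The kappa-B site was in 4 of 9 (Fos, Fosb, Maff and Nr4a1), against 6.08%, and the CArG box in 1 of 9, against 1.54%. The AP-1 site TGANTCA was in none of the 9, against 6.55%, and in 6 of 26 risen genes with a promoter. Of the other motifs sought, the E-box CACGTG was in 2 of 9, against 11.5%, and the C/EBP site TTGCNNAA in 1 of 9, against 10.6%. The insulin response element CAAAACA was in none of the 9, against 5.55%. With 9 genes these shares are coarse, and none was tested. These matches describe letters in the windows and say nothing of binding.

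**Figure D3:**
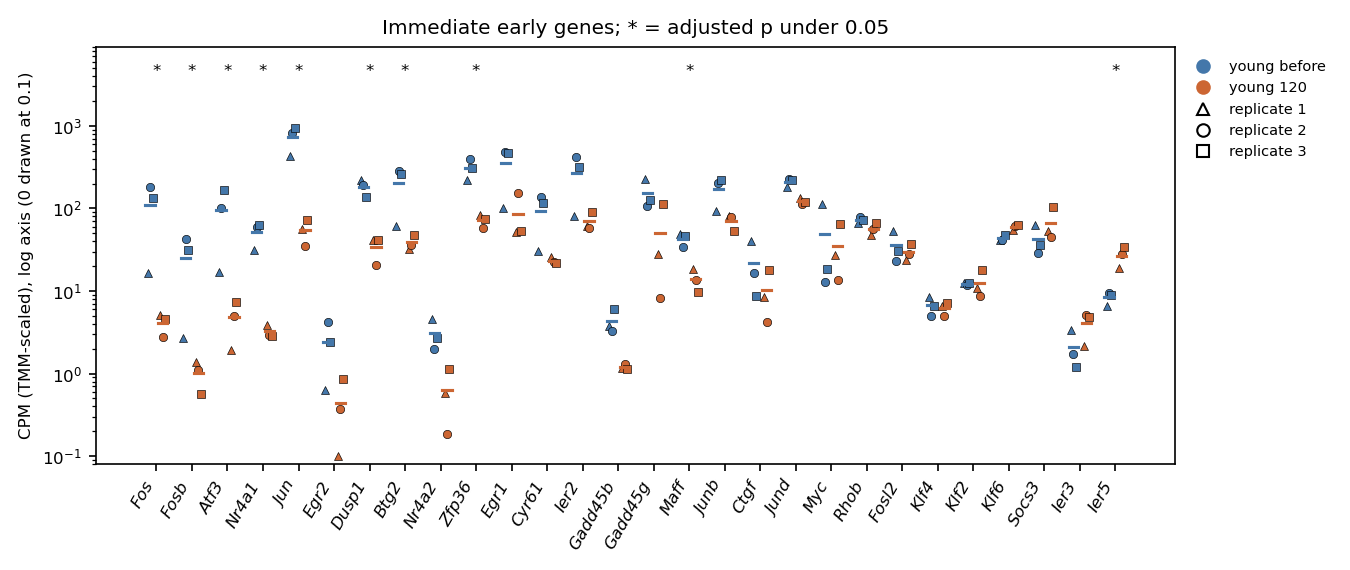
Levels of the 28 tested immediate early genes (TMM-scaled CPM, log axis), ordered by log2 fold change, 1 point per library with bars for the group means and a star at the 10 called genes. Jun falls from 434 to 934 CPM before to 35.2 to 71.7 CPM at 120, the triangle of replicate 1 is the lowest point before for Fos, Fosb and Atf3, and Ier5 at the right is the star with the higher group at 120.

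Some genes of gluconeogenesis and glycogen handling fell. Of 16 members tested, 4 were called lower (Ppp1r3g, Igfbp1, G6pc and Gys2) and none higher, against 0.372% and 0.223% of all genes, and the list's median log2 fold change was -0.46. Igfbp1, a binding protein of growth factors, is also a member of the growth hormone list, so its call is counted in both. Without replicate 1 at 120, 1 member was called lower (Ppp1r3g), of 20 genes called lower in that fit. Within the 24 libraries without Y-linked transcripts 2 members were, of 35 genes. Ppp1r3g, a regulatory subunit that directs protein phosphatase 1 to glycogen, fell most of all called genes, from 226, 155 and 120 CPM to 2.73, 3.89 and 3.42 CPM. That is a 49.4-fold fall (log2 fold change -5.63, SE 0.72, adjusted p 5.893e-05, edgeR), with the groups far apart. Its gene lies at chr13:35958824-35970388 (GRCm38.p6).

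G6pc, the catalytic subunit of glucose-6-phosphatase that releases free glucose, was at 1903, 1459 and 1622 CPM before and at 223.7, 425.7 and 260.9 CPM at 120 (log2 fold change -2.45, SE 0.51, adjusted p 0.0149, edgeR). Igfbp1, a secreted binding protein of insulin-like growth factors whose transcription insulin represses, went from 422, 466 and 462 CPM to 44.0, 63.2 and 49.1 CPM (log2 fold change -3.11, SE 0.74, adjusted p 0.0404, edgeR). Libraries within each group were close to each other for Igfbp1. Gys2, the liver glycogen synthase, went from 263, 231 and 280 CPM to 130, 104 and 83.9 CPM (log2 fold change -1.28, adjusted p 0.0404, edgeR).

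The promoters of G6pc and Igfbp1 are shown because both genes are textbook targets of insulin through FOXO factors, and the insulin response element CAAAACA or its complement is in capitals (GRCm38.p6, 250 bases before the start, 5′ to 3′).
G6pc, chr11:101367466-101367715, plus strand: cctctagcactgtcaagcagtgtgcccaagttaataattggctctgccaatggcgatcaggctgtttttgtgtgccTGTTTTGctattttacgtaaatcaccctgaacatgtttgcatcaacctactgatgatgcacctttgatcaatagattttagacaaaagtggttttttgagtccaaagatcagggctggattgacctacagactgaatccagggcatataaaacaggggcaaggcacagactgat
Igfbp1, chr11:7197537-7197786, plus strand: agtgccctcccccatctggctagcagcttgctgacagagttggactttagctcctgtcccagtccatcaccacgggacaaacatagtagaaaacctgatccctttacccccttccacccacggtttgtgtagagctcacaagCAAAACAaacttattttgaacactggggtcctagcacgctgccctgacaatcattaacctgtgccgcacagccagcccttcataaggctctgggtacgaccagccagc
The element begins 174 bases before the start of G6pc and 108 before that of Igfbp1. It was in 3 of 45 fallen genes with a promoter (6.67%), against 5.55% of tested genes.

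Other members of the list did not pass. Pck1, the other key enzyme of gluconeogenesis, was at 6625, 6747 and 4250 CPM before and 2986, 4760 and 5649 CPM at 120 (log2 fold change -0.40, adjusted p 0.665), and its groups overlapped. Fbp1, Pcx and Ppargc1a lay between -0.03 and 0.08. Fbp2, the muscle-type fructose bisphosphatase and no list member, fell from 13.1, 4.23 and 9.44 CPM to 0, 0.185 and 0.856 CPM (log2 fold change -4.80, adjusted p 0.0081, edgeR), and Prkag3, a regulatory subunit of AMP-activated kinase, by 3.22 (adjusted p 0.00717, edgeR). Leaving out 1 library ended the call of G6pc (without replicate 1 before or replicates 1 or 3 at 120, adjusted p up to 0.113), Igfbp1 (without any, up to 0.157), Gys2 (without any, up to 0.196), Fbp2 (without replicates 1 or 2 at 120, up to 0.0836) and Prkag3 (without replicate 2 before or 2 at 120, up to 0.0786). With the replicate number as a block Igfbp1 did not pass (-3.12, adjusted p 0.0609).

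No de novo lipogenesis gene was called. Each of the 20 members tested had a negative log2 fold change, with a median of -0.68 (also -0.68 without replicate 1 at 120), and 14 lay lower at 120 without overlap, against 10.9% of all genes. The lack of a call depended on the fit: 3 members were called lower with DESeq2, 3 in a fit of the 6 libraries alone, 4 in a fit of the 18 young libraries and 1 with median-of-ratios scaling. Over all genes these fits called 112, 98, 121 and 52 lower, against 50 in the edgeR fit of all libraries. Fasn, the fatty acid synthase, was at 3351, 3181 and 2983 CPM before and 1240, 1242 and 1636 CPM at 120 (log2 fold change -1.21, SE 0.32, adjusted p 0.0709). Acaca, the acetyl-CoA carboxylase before it in the pathway, had -0.63 (adjusted p 0.0592) and Elovl5, a fatty acid elongase, -0.91 (adjusted p 0.104). Fasn, Acaca and Elovl5 each passed in 3 of 16 alternative fits, which are listed with the processing of the data. Cholesterol synthesis and uptake had a median of -0.40 with 20 of 23 members below 0, and fatty acid oxidation one of -0.31 with 20 of 21 below 0; neither list had a call in the fit of all libraries.

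Acute phase proteins lay mostly higher at 120, and 2 of them were called. Of the members tested, 23 had a positive log2 fold change and 4 a negative one. Without overlap, 13 lay higher and 1 lower, against 11.7% and 10.9% of all genes. The number called higher depended on the fit: 4 with DESeq2, 6 in a fit of the 18 young libraries and 8 in a fit of the 6 libraries alone. Over all genes these fits called 74, 95 and 121 higher, against 30 in the edgeR fit of all libraries. Of 27 members tested, 2 were called higher (Lcn2 and Orm2) and none lower, against 0.223% and 0.372% of all genes, and the median log2 fold change was 0.69. Lcn2, lipocalin 2, which binds bacterial siderophores, rose from 2.08, 3.48 and 2.66 CPM to 35.5, 107 and 105 CPM, 30.0-fold (log2 fold change 4.91, SE 0.87, adjusted p 0.00472, edgeR). Replicate 1 at 120 was the lowest of its group and still far above every library before. Orm2, an alpha-1-acid glycoprotein, rose from 5.62, 15.7 and 21.1 CPM to 72.9, 200 and 188 CPM (log2 fold change 3.45, SE 0.62, adjusted p 0.0055, edgeR), again lowest in replicate 1 in both groups.

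The serum amyloid genes had large fold changes that did not pass. Saa2 went from 21.4, 11.4 and 24.5 CPM to 336.7, 422 and 1154 CPM (log2 fold change 5.05, SE 1.27, adjusted p 0.0608), and Saa1 had a log2 fold change of 4.13 (adjusted p 0.0767). Saa2 passed in 4 of the 16 alternative fits. Saa1 and Saa2, like the Orm genes, are near-identical copies between which reads may have been divided, so the split within each family is uncertain. Fibrinogen genes had log2 fold changes under 0.4 without a call (Fga 0.32, Fgb 0.19, Fgg 0.29), Hp was at 0.90 (adjusted p 0.21), and hepcidin, Hamp, at -1.16 (adjusted p 0.356).

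Among the remaining rises Armcx4, a member of the armadillo repeat family on the X chromosome, had the smallest p. It went from 17.3, 25.6 and 22.0 CPM to 99.4, 104 and 169 CPM, 5.73-fold (log2 fold change 2.52, SE 0.30, adjusted p 3.602e-05, edgeR). Fgr, a Src-family kinase of myeloid cells, rose from 4.79, 3.73 and 5.57 CPM to 9.94, 20.9 and 18.0 CPM (log2 fold change 1.78, SE 0.31, adjusted p 0.00472, edgeR). Rbm3, a cold-inducible RNA-binding protein, rose from 12.3, 11.7 and 11.9 CPM to 21.0, 23.2 and 36.5 CPM (log2 fold change 1.16, SE 0.22, adjusted p 0.00717, edgeR). The phospholipid flippase Atp11a (1.72, adjusted p 0.0121), the endoplasmic reticulum shaping protein Reep1 (1.72, adjusted p 0.0121), Cyp4f16 (1.84, adjusted p 0.0148), the zinc finger gene Zbtb45 (1.44, adjusted p 0.0279) and Ifi27l2b (2.42, adjusted p 0.0486) were also called higher. Ttc39aos1, annotated as antisense to a neighbour, had a log2 fold change of 2.73 (adjusted p 0.0259), and since strand use in counting is not given, its reads cannot be told apart from those of the opposite strand.

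These calls were less firm than those of Armcx4 and Fgr, since leaving out 1 library ended each of them. Rbm3 lost its call without replicate 3 at 120 (adjusted p 0.0695), and Atp11a without replicates 1 or 2 before or 1 at 120 (up to 0.0883). Reep1 lost it without replicates 2 or 3 before or 3 at 120 (up to 0.0737), Cyp4f16 without replicates 1 or 2 before or 1 or 3 at 120 (up to 0.128), and Zbtb45 and Ttc39aos1 without any library but replicate 3 at 120 (up to 0.196 and 0.146). Ifi27l2b lost it without any library (up to 0.207).

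A group of 6 calls rested on the library with muscle transcripts. Ttn, the giant sarcomere spring protein, was at 8.53, 8.21 and 14.0 CPM before and at 1559, 6.30 and 5.14 CPM at 120 (log2 fold change 5.67, adjusted p 0.0121), and without replicate 1 at 120 it had a log2 fold change of -0.84 (adjusted p 0.522). Atp2a1, the fast muscle calcium pump, went from 5.22 to 0.17 without that library (adjusted p 0.972), Cmya5 from 4.39 to 0.62 (adjusted p 0.767), Ankrd23 from 3.34 to 0.35 (adjusted p 0.854) and Slc25a4, an ADP/ATP carrier abundant in muscle, from 1.93 to 0.45 (adjusted p 0.68). Ppp1r3a, the glycogen-targeting subunit of muscle, was at 24.7 CPM in it and under 1 CPM in the other 5. With the replicate number as a block, Ankrd23 (2.99, adjusted p 0.0829) and Slc25a4 (1.70, adjusted p 0.0724) did not pass. The desmin gene Des, counted here with stellate cells, was uncalled with a log2 fold change of 2.51 that became 0.15 without this library. Des passed in 5 of the 16 alternative fits.

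Among p53 targets the calls went both ways, while most members lay higher at 120. Of 24 members tested, 2 were called higher (Phlda3 and Zmat3) and 3 lower (Gdf15, Btg2 and Trp53inp1), against 0.223% and 0.372% of all genes, with a median log2 fold change of 0.47 (0.29 without replicate 1 at 120). The log2 fold change was positive for 18 and negative for 6. Without overlap, 12 lay higher and 4 lower, against 11.7% and 10.9% of all genes. Btg2 is also an immediate early list member, so its call is counted in both. Gdf15, a stress-induced cytokine, fell from 35.4, 83.6 and 76.8 CPM to 10.1, 5.93 and 5.71 CPM (log2 fold change -3.15, SE 0.56, adjusted p 0.00472, edgeR). Trp53inp1, an autophagy and apoptosis factor, fell from 444, 699 and 782 CPM to 235, 168 and 201 CPM (log2 fold change -1.67, adjusted p 0.0121, edgeR). Phlda3, an inhibitor of Akt, rose from 0.832, 2.49 and 2.42 CPM to 12.5, 8.34 and 4.85 CPM (log2 fold change 2.20, adjusted p 0.0404, edgeR), and Zmat3 by 0.78 (adjusted p 0.0486, edgeR). Cdkn1a, the p21 inhibitor of cyclin-dependent kinases, did not pass (1.61, adjusted p 0.394). Leaving out 1 library ended the call of Trp53inp1 (without replicates 2 or 3 of either group, adjusted p up to 0.0752), Phlda3 (without any but replicate 3 at 120, up to 0.21) and Zmat3 (without any, up to 0.219), and with the replicate number as a block Phlda3 (2.19, adjusted p 0.0554) and Zmat3 (0.79, adjusted p 0.0564) did not pass.

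Further falls were of single genes. Herpud1, which serves the degradation of misfolded proteins, was the only one of 28 members of the unfolded protein and heat shock list to be called; it went from 500, 664 and 418 CPM to 233, 186 and 220 CPM (log2 fold change -1.31, SE 0.24, adjusted p 0.00656, edgeR), while the chaperone Hspa5 had -0.45 (adjusted p 0.593). Actg1, the cytoplasmic gamma-actin gene, fell by 2.33 (adjusted p 0.00656, edgeR), a value made uncertain by its pseudogenes, and was the only call among 21 tubulin and cytoskeleton genes. Ecm1, a secreted matrix protein, was the only call among 32 stellate cell and matrix genes, and went from 113, 120 and 135 CPM to 63.7, 70.0 and 60.8 CPM (log2 fold change -0.92, adjusted p 0.0148, edgeR). Most of its list lay on the other side, with 27 of 32 members above 0 and a median of 0.59 (0.40 without replicate 1 at 120). Without overlap, 15 lay higher and 1 lower, against 11.7% and 10.9% of all genes. In a fit of the 6 libraries alone 5 members were called higher and 1 lower, against 121 higher and 98 lower over all genes in that fit. Btbd19 fell by 3.15 (adjusted p 0.00131, edgeR), and the low-level genes Cnnm1 (-3.70, adjusted p 0.0173), Rgs8 (-3.52, adjusted p 0.0355) and Lsmem1 (-3.48, adjusted p 0.0257) had mean levels under 10 CPM before.

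Herpud1 lost its call without replicate 2 before (adjusted p 0.0647), Actg1 without replicate 2 before or replicates 1 or 2 at 120 (up to 0.0617) and Ecm1 without replicates 2 or 3 before or 1 or 3 at 120 (up to 0.0836). Cnnm1 (up to 0.122) and Rgs8 (up to 0.174) lost it without any library but replicate 1 before, and Lsmem1 without replicates 2 or 3 of either group (up to 0.162) and with the replicate number as a block (-3.44, adjusted p 0.0529). Sox13 and Ifrd1, singled out after their values were seen, had tight falls outside the 15 of the largest size. Sox13, a transcription factor of the SOX family, went from 60.8, 59.4 and 59.1 CPM to 16.9, 8.15 and 12.6 CPM (log2 fold change -2.25, SE 0.27, adjusted p 3.6e-05, edgeR; without replicate 1 at 120 it was -2.56, adjusted p 6.56e-05). Ifrd1, a transcriptional co-regulator, fell by 2.25 (adjusted p 0.000176, edgeR).

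The row of Mir29a fell as well, from 9.36, 10.2 and 17.9 CPM to 0.974, 1.30 and 0.856 CPM (log2 fold change -3.52, SE 0.74, adjusted p 0.0164, edgeR). The mature sequence from RefSeq (GRCm38.p6, chr6:31062673-31062694, minus strand) is shown because the gene encodes a microRNA known for repressing collagen messages, with the seed, bases 2 to 8, in capitals.
mmu-miR-29a-3p: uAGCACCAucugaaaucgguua
The libraries were made from total RNA, and reads on this row cannot be told apart as coming from the precursor or from the mature form. The call was lost without replicate 3 before or any library at 120 (adjusted p up to 0.11). The collagen genes Col1a1 (1.01, adjusted p 0.567), Col1a2 (1.13, adjusted p 0.415), Col3a1 (0.98, adjusted p 0.431) and Col4a1 (0.99, adjusted p 0.206) did not pass. A link between the Mir29a row and the collagen genes was not tested.

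Cell cycle genes gave no call against the level before in the fit of all libraries. None of 38 mitosis genes and none of 37 DNA replication genes was called (edgeR). At an unadjusted p of 0.05, 10 and 4 were higher, against 6.92% of all genes, and none lower. In a fit of the 6 libraries alone, 6 mitosis genes were called higher, Mki67 among them (adjusted p 0.00497, edgeR). That fit called 121 genes higher over all genes. Of the 38 mitosis genes, 37 had a positive log2 fold change, with a median of 1.31 (1.10 without replicate 1 at 120), and 26 lay higher at 120 without overlap, against 11.7% of all genes. Mki67, the proliferation antigen, was at 31.4, 45.0 and 46.5 CPM before and 185.7, 134.9 and 140.7 CPM at 120 (log2 fold change 1.91, SE 0.74, adjusted p 0.28). Every library at 120 lay above those before. Top2a, the topoisomerase of dividing cells, had 1.66 (adjusted p 0.378) and the mitotic kinase Cdk1, at up to 3.90 CPM, 2.90 (adjusted p 0.223), while Ccnb1 had 0.76 (adjusted p 0.892). The DNA replication list had a median of 0.38 with Mcm2 at 1.16 (adjusted p 0.398).

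Marker lists of other cell types gave no call except Ecm1. In bulk tissue, fewer or more cells of a type and less or more RNA per cell cannot be told apart. The macrophage list (24 tested) had a median log2 fold change of 0.64, and its summed level was 1010, 1040 and 1190 CPM before and 1040, 2310 and 1830 CPM at 120. Replicate 1 at 120 thus lay at the level before, and the median was 0.90 without it. Marco, a scavenger receptor of Kupffer cells, went from 1.87, 1.49 and 3.63 CPM to 16.6, 37.0 and 19.4 CPM (log2 fold change 3.38, SE 0.95, adjusted p 0.1). Cd5l, a secreted Kupffer cell protein, had 1.11 (adjusted p 0.348), Csf1r 0.74 (adjusted p 0.275) and Clec4f 0.52 (adjusted p 0.651). Marco passed in 3 of the 16 alternative fits and Cd5l in 1. Fgr, called above, was lowest at 120 in the same replicate 1, and the part of macrophage markers in its rise was not tested.

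All 28 interferon response genes had a positive log2 fold change, with a median of 0.55 and no call (edgeR; 3 were higher at an unadjusted p of 0.05, against 6.92% of all genes). Their summed level was 867, 1080 and 1060 CPM before and 1020, 1690 and 1330 CPM at 120, so replicate 1 at 120 overlapped the libraries before. The neutrophil list, of which 5 of 13 could be tested, summed to 3.70 to 6.51 CPM before and 8.59 to 18.2 CPM at 120, and the granule genes Ngp, Camp, Mpo and Elane had a sum of counts too low for testing. T, B and NK cell genes (7 of 21 tested) summed to 28.9 to 46.1 CPM before and 37.3 to 76.0 CPM at 120. Endothelial genes (24 tested) had a median of -0.08, and bile duct genes (6 tested) of 0.09, without a call; the endothelial median was 0.01 under total-count scaling.

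Genes of hepatocyte identity gave no call. The 33 tested hepatocyte genes had a median log2 fold change of -0.20 and no call, and Alb had -0.03 (adjusted p 0.976), a sign that turned under total-count scaling (0.06). The pericentral Wnt targets had a median of 0.01, bile acid genes of -0.27, and cytochrome P450 and conjugation enzymes of -0.10. The growth hormone and sex-biased list had a median of -0.37, and Igfbp1 was its only call among 35. Of the fetal and progenitor genes (12 of 20 tested), the imprinted RNA H19 went from 0.208, 3.48 and 3.39 CPM to 205, 35.6 and 27.4 CPM (log2 fold change 5.28, SE 1.39, adjusted p 0.0753; 3.77 without replicate 1 at 120, adjusted p 0.29), and Ly6d had 3.67 (adjusted p 0.0981), while Afp had 0.73 (adjusted p 0.595). Of 21 circadian genes none was called. Rgs16, a rhythmic regulator of G protein signalling, went from 710, 903 and 510 CPM to 32.7, 94.1 and 46.0 CPM (log2 fold change -3.62, SE 1.02, adjusted p 0.104). The clock genes Arntl (0.63), Per2 (-0.06) and Dbp (0.03) gave no call either. In the 16 alternative fits, H19 passed in 4, Rgs16 in 3 and Ly6d in 2.

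**Figure D4:**
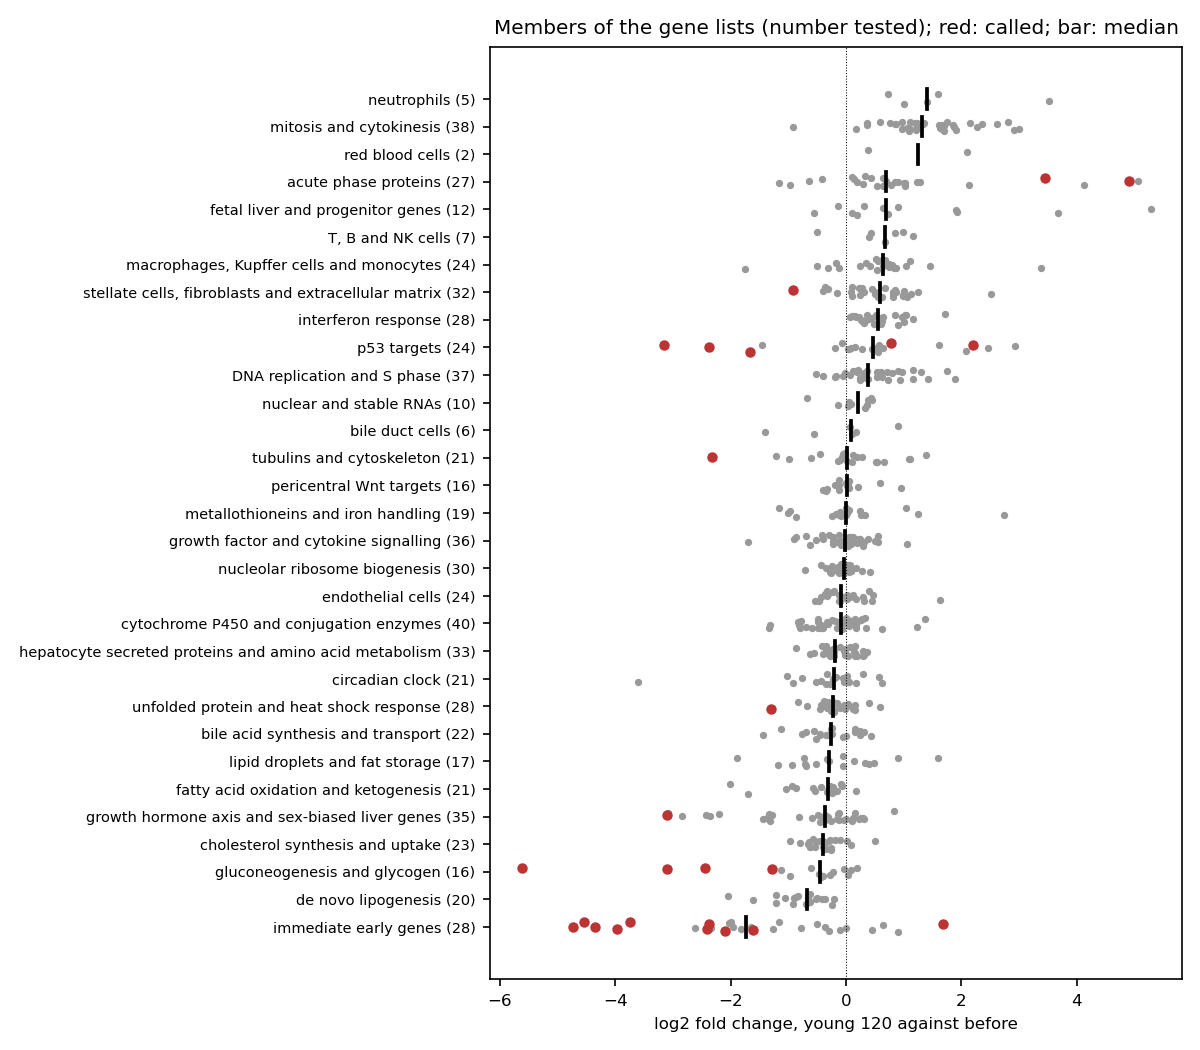
Log2 fold change of every tested member of the gene lists, young 120 against before, with red points for called genes and black bars for list medians. Immediate early genes (median -1.74) lie lowest with 9 red points below 0, the 20 lipogenesis genes all lie below 0 without a red point, and the 28 interferon genes all lie above 0.

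Young liver at 120 was also set against 48, 96 and 240. Of 13436 genes, 2176 (16.2%) were called between 120 and 48, 851 higher (6.33%) and 1325 lower (9.86%) at 120 (edgeR). All 38 mitosis genes and 33 of 37 DNA replication genes were lower than at 48. Mki67 had fallen from 2288 ± 778 CPM at 48 to 154 ± 27.8 CPM at 120 (SD, n = 3 each; log2 difference -3.90, adjusted p 0.000997, edgeR), and Hirip3, a histone chaperone partner, from 72.9 ± 30.6 to 11.4 ± 1.38 CPM (-2.67, adjusted p 2.28e-06, edgeR). The coactivator Ppargc1b was higher at 120 by 2.34 (adjusted p 1.29e-05, edgeR). Without replicate 3 at 48 the count was 1208, without replicate 2 at 120 it was 1403, and within the 24 libraries without Y-linked transcripts 1154.

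Of the lipogenesis list, 11 of 20 were called higher at 120 than at 48 and none lower, against 6.33% and 9.86% of all genes. Fasn was at 3172 ± 184 CPM before, 604 ± 105 at 48, 1373 ± 228 at 120 and 2292 ± 824 at 240 (SD, n = 3 each), and its difference between 120 and 48 was 1.18 (adjusted p 0.00955, edgeR). Gys2 was higher than at 48 by 1.69 (adjusted p 0.000374, edgeR) and Rgs16 by 6.59 (adjusted p 0.00251, edgeR). Of the 21 circadian genes 11 were called higher and 2 lower than at 48, against the same shares of all genes. Of the 27 acute phase genes, 1 was called higher and 3 lower than at 48, against 6.33% and 9.86% of all genes. Lcn2, 1 of the 3, was at 336 ± 61.5 CPM at 48 and at 82.4 ± 40.6 CPM at 120 (log2 difference -2.03, adjusted p 0.0418, edgeR), while Orm2 did not pass (-0.84, adjusted p 0.314).

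Jun, Zfp36 and Ppp1r3g stayed under their level before. Jun was at 147 ± 35.9 CPM at 48, 54.5 ± 18.3 at 120 and 51.3 ± 15.4 at 240, and was lower at 120 than at 48 by 1.44 on the log2 scale (adjusted p 0.0324, edgeR). Zfp36 was at 57.6 ± 18.2 CPM at 48, 72.0 ± 12.6 at 120 and 75.5 ± 12.6 at 240, each of them far under its 308 ± 84.8 CPM before. Ppp1r3g was at 0.982 ± 0.496 CPM at 48, 3.35 ± 0.585 at 120 and 8.44 ± 4.04 at 240, against 167 ± 53.8 before. Armcx4 was at 116 ± 24.3 CPM at 48 and at 124 ± 38.7 CPM at 120 and stood at 59.1 ± 25.7 CPM at 240, a difference from 120 of -1.07 that did not pass (adjusted p 0.671). Of the genes called at 120 against before, 50 of the 50 falls already had a negative log2 fold change at 48 against before. Of the 30 rises, 25 already had a positive one. The comparisons of 120 and of the other time points with before share the 3 libraries before.

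No gene was called between 120 and 96 (0% of 13436; edgeR, with 360 at an unadjusted p of 0.05, and 1 called by DESeq2) or between 240 and 120 (0%; 455 at an unadjusted p of 0.05, and 3 called by DESeq2). Leaving out replicate 2 or 3 at 120 gave 6 and 5 genes against 96, all higher at 120, and 14 and 6 genes against 240, all lower at 240.

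**Figure D5:**
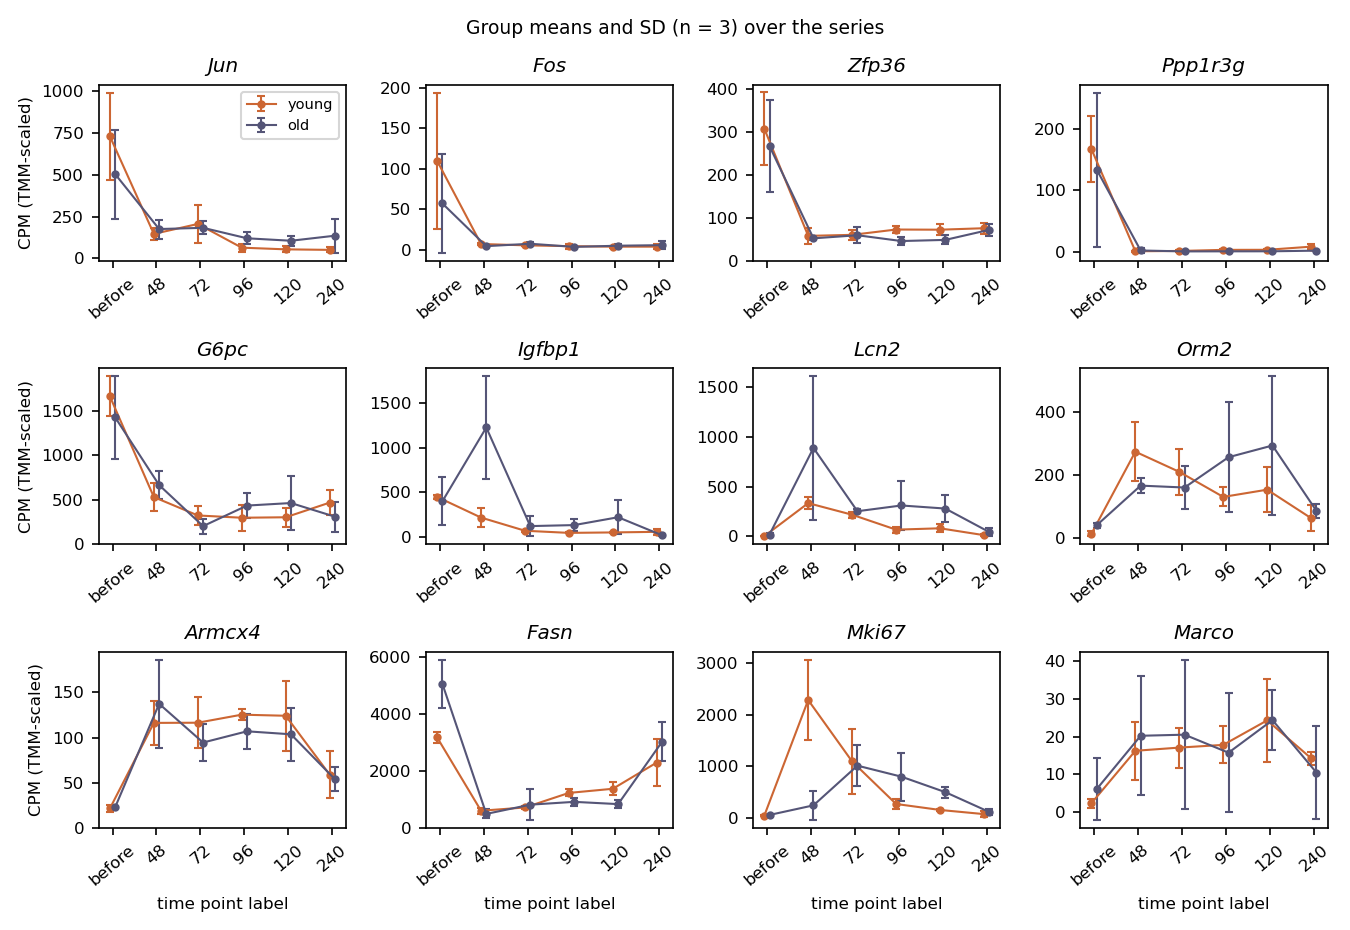
Group means of 12 genes over the 6 time points (TMM-scaled CPM; bars are SD, n = 3) in young and old mice. In young liver at 120, Jun, Fos, Zfp36 and Ppp1r3g lie near the bottom of their range, Fasn (1373 CPM) lies between its levels at 48 and before, and Mki67 (154 CPM) lies far below its level at 48 (2288 CPM).

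In old mice, most of the 80 genes had a change of the same sign. Of the 30 genes called higher in young, 26 had a positive log2 fold change from before to 120 in old and 11 were called there, and of the 50 called lower, 49 had a negative one and 25 were called; the old libraries are separate from the young. Over all genes tested in old, 4.05% were called (1.96% higher and 2.08% lower), 49.8% had a positive log2 fold change and 50.2% a negative one. In old mice, Ppp1r3g had a log2 fold change of -7.29 (adjusted p 1.69e-05), Zfp36 of -2.46 (adjusted p 1.69e-05), Jun of -2.25 (adjusted p 0.00648), Lcn2 of 3.86 (adjusted p 0.00441) and Armcx4 of 2.16 (adjusted p 0.000146). Igfbp1 was not called in old (-0.85, adjusted p 0.532), and its difference between the ages did not pass (-2.26, adjusted p 0.638). The test of the difference between the ages in the change from before to 120 called 1 gene (0.00744% of 13436; 937 at an unadjusted p of 0.05, 2 called by DESeq2).

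That gene was Ablim3, an actin-binding LIM protein. In young liver it was at 38.9, 56.2 and 53.5 CPM before and 38.8, 23.0 and 26.3 CPM at 120 (log2 fold change -0.75, adjusted p 0.0755), while in old liver it went from 20.9 ± 2.12 to 46.8 ± 2.86 CPM (SD, n = 3 each; 1.16, adjusted p 0.00174). The difference was -1.91 (SE 0.29, adjusted p 0.00349, edgeR). In young the libraries with Y-linked transcripts, replicate 1 of each group, had almost the same level, and replicates 2 and 3 were lower at 120. Within the 24 libraries without these transcripts the same test called 31 genes, Ablim3 among them.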

How the data were processed

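Total RNA of frozen liver was depleted of ribosomal RNA and sequenced, per the labels' protocols. The values used are the deposited raw counts per gene, 1 table per sample with 21955 symbols, of which 27 had been turned into dates and kept as listed. Per the submitters' processing notes, the authors used bcl2fastq 2.20.0, Trimmomatic 0.39, FastQC 0.11.9, STAR 2.7.5b, SAMtools 1.10, Picard 2.20.8, deepTools 3.5.0 and featureCounts with GRCm38/mm10; annotation and strand setting are not given in the sources used here.

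Counts of all 36 libraries entered 1 fit of edgeR 4.0.16 in R 4.3.3 (quasi-likelihood F test, TMM scaling, filterByExpr on the 12 groups, no covariate), with Benjamini-Hochberg adjustment over all genes tested and calls at 0.05. The script was tested on simulated data. SE is the log2 fold change divided by the root of F. A count of 3 was worth 0.5562 to 0.8266 CPM in the 6 libraries, which limits genes near that level. Levels of muscle genes and list sums are CPM without TMM factors.

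Equal replicate numbers are not said to mark an animal. In young mice the library with Y-linked transcripts is number 3 at 48 and 72 and number 2 at 96, so equal numbers cannot mark the same animal over all time points. The main fit has no block. A block on the replicate number, tied over all time points of an age, is given as an alternative where it changes a call. The correlation of deviations from group means over the 5000 most expressed genes was 0.645, 0.494 and 0.262 for numbers 1, 2 and 3. In both groups compared, the library with Y-linked transcripts is number 1, and pairs that mixed it with others had -0.574 to -0.348. Deviations from a group mean cancel within the group. A positive value for number 1 therefore makes the mixed pairs negative, and the pairs among numbers 2 and 3 positive, on balance. These signs add nothing to the value of number 1 itself. The unmatched pairs of numbers 2 and 3 had 0.409 and 0.286, both above the matched value of number 3, so these values do not separate 2 from 3.

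Genes were named by rule: the 15 largest called rises and falls with a mean of at least 1 CPM in the higher group and no overlap, all called list members (or the 3 smallest p), 10 genes reported whatever their result, and for the other comparisons also the 3 called genes of each sign with the smallest p. The members and lists were chosen with earlier results of these data known. Promoters of RefSeq (GRCm38.p6) matched 71 of the 80 called genes by symbol. Alternatives were DESeq2 1.42.0, other scalings and filters, other sets of libraries, a Y-linked covariate, the replicate block and leaving out each library.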

Additional observations from a re-analysis of the deposited data

Results flagged for a closer look

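Ablim3 drew attention because its change from before to 120 differed between the ages. The difference, young minus old, was -1.91 on the log2 scale (SE 0.29, adjusted p 0.00349, edgeR's quasi-likelihood test of the interaction). In young liver it was lower at 120 in replicates 2 and 3 and level in replicate 1. In old liver its mean was higher at 120 than before.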

How the results depend on the processing

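The 80 genes called between 120 and before became 186 with DESeq2, 216 in a fit of the 18 young libraries and 219 in a fit of the 6 libraries compared; leaving out 1 library gave 31 to 54. With the replicate block, which ties equal numbers over all time points of an age, 82 genes passed (66 shared with the 80). Among the called genes named by rule it ended 7 calls, all given above, and no other. Of the 41 called genes named by rule, 10 kept their call in all 16 alternatives and none turned direction. The 2176 genes called against 48 became 1154 in the 24 libraries without Y-linked transcripts and 1208 to 2251 when 1 library was left out. Against 96, the count of 0 became 1 with DESeq2, 2 without a filter on low counts, 1 with a Y-linked covariate, 2 in the 24 libraries and 0 to 6 with 1 library left out. Between 240 and 120, the count of 0 became 3 with DESeq2, 1 in the 18 young libraries, 1 in the 24 libraries and 0 to 14 with 1 library left out. The single gene of the age difference at 120 became 2 with DESeq2, 31 in the 24 libraries, 0 in a fit of only the libraries compared and 1 to 3 with 1 library left out. Of 31 lists, 23 held no call, and in 14 of these at least 1 member, at most 6, was called lower or higher in some alternative. The medians of 9 lists changed sign in some alternative, among them bile duct genes (-0.20 in the 24 libraries), endothelial genes and lipid droplet genes (up to 0.158 with 1 library left out). Among the uncalled genes recomputed, those that changed sign were Alb (0.055 with total-count scaling, and -0.13 to 0.038 with 1 library left out) and Ccnb1 (-0.095 in the 24 libraries). The causes were not tested.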

Other observations

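Lists not described above held no call. Nucleolar ribosome biogenesis genes (30 tested) had a median log2 fold change of -0.04, which was 0.05 under total-count scaling. Growth factor and cytokine signalling genes (36 tested) had -0.02, which was 0.06 under total-count scaling, and Smad7, an inhibitor of TGF-beta signalling, went from 80.7, 44.8 and 47.7 CPM to 30.2, 24.4 and 38.5 CPM (log2 fold change -0.90, adjusted p 0.0688). Metallothionein and iron genes (19 tested) had 0.00488, and Mt2 was at 17.9, 89.8 and 15.2 CPM before and 114, 390 and 317 CPM at 120 (2.74, adjusted p 0.107). Smad7 and Mt2 each passed in 1 of the 16 alternative fits. The medians of the remaining lists follow. Lipid droplet genes (17 tested) had -0.29, red blood cell genes (2 tested) 1.24 and nuclear and stable RNAs (10 tested) 0.21.

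Ass1, an abundant urea cycle enzyme of hepatocytes, had between 1 and 4 counts in each of the 6 libraries, too few to be tested. Without replicate 1 at 120, Ablim3 also passed in the comparison with before in young liver (-1.02, adjusted p 0.0305).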
